A study of Rattus norvegicus with 48 samples.

Results

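The genes described here make cholesterol, sense and move it inside the cell, and export it. They are 30 genes named by symbol, of the 32883 genes in each count table. They were chosen with earlier results of these data known. All 30 were present in both tables and passed the filter on low counts in both tissues. By role they fall into 18 genes of synthesis, 8 of sterol sensing, uptake and transport, and 4 of efflux. RNA was sequenced from the retina and the posterior eye of 24 female Long-Evans rats, an outbred pigmented strain. Young animals (3 to 4 months) and aged animals (9 to 10 months, middle-aged in the submitters' words) underwent ovariectomy (OVX), the surgical removal of the ovaries, or sham surgery, which leaves them in place. Age and surgery make 4 groups of 6 animals each, and the labels give no further allele or agent for any of them. Each animal gave 1 library of each tissue, so the 48 libraries are biological replicates over animals.

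Cholesterol is built from acetyl units through mevalonate, isoprenoids, squalene and lanosterol, which then loses methyl groups. When membranes run low in sterol, the SREBP-2 transcription factor (encoded by Srebf2) is escorted by Scap to the Golgi, cut free, and switches on nearly the whole run of synthesis genes, while Insig proteins hold it back when sterol is plentiful. An excess of sterol is sensed through oxysterols by the liver X receptors Nr1h2 and Nr1h3, which raise the exporters Abca1 and Abcg1. In the eye, the retina makes part of its own cholesterol, and the pigment epithelium and choroid take up lipoprotein from blood and pass lipid in both directions. Sebaceous and meibomian glands, at the lid margin and in hair follicles, are rich in lipid synthesis enzymes of all kinds.

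Posterior eye libraries differed widely in tissue content. Over 10 rod genes their summed level ran from 96.9 to 33810 CPM (the gene count over the scaled library total, the usual unit for counts of unequal depth), against 85581 to 103831 CPM in the retina. As a check on gland tissue, the wax synthase gene Awat2, which is no member of the pathway and marks lipid-secreting skin glands, was read in every library. It stayed between 0 and 0.404 CPM in the 24 retina libraries. In the posterior eye of young sham animals 1 to 6 it stood at 9.70, 792, 0.110, 397, 0.304 and 1365 CPM. Among young OVX libraries animal 10 was at 88.1 CPM and the other 5 lay between 0.151 and 2.16 CPM. Among aged sham libraries animal 16 was at 1177 CPM and the other 5 lay between 0.0525 and 3.03 CPM, and the 6 aged OVX libraries lay between 0.114 and 4.43 CPM. High Awat2 thus fell on 3 of 6 young sham libraries and on 2 of the other 18. The summed level of 12 sebaceous gland genes, of which 1 was at 0 in every aged OVX library and none in the other groups, ran from 68.3 to 2387 CPM in young sham, 55.2 to 208 in young OVX, 60.4 to 2024 in aged sham and 52.8 to 85.4 in aged OVX.

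Promoters are shown first, as sequence only. Whether they have a part in the levels given below was not tested. The 250 bases before the annotated start are printed for the 5 members with the smallest p in young posterior eye that have an entry in RefSeq's promoter table (build GRCr8), and for Abca1 as a gene of efflux. Each runs 5′ to 3′ in the direction of transcription, and capitals mark CCAAT or its reverse complement ATTGG, the box bound by the factor NF-Y, which acts beside SREBP-2 at many sterol genes.
Idi1, chr17:66547525-66547774, minus strand: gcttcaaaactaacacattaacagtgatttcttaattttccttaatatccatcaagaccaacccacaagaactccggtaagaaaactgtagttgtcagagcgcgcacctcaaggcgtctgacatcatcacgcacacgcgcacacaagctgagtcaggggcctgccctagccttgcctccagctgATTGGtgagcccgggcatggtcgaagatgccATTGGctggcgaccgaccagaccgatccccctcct
Mvd, chr19:67414975-67415224, minus strand: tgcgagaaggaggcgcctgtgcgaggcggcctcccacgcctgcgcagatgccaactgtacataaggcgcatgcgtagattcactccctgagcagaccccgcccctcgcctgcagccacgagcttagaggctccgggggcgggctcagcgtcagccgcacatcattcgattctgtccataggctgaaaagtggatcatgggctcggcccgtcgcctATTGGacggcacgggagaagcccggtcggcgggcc
Fdps, chr2:176804817-176805066, minus strand: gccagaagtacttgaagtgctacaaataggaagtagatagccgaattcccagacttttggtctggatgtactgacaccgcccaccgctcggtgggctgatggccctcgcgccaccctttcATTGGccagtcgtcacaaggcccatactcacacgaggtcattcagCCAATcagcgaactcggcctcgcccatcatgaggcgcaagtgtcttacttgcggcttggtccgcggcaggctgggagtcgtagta
Mvk, chr12:47819504-47819753, minus strand: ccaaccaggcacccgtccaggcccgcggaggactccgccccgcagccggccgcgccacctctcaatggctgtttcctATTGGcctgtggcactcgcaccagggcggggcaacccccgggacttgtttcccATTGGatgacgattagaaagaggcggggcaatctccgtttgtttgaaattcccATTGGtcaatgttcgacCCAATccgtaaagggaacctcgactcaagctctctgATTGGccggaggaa
Sc5d, chr8:51538278-51538527, minus strand: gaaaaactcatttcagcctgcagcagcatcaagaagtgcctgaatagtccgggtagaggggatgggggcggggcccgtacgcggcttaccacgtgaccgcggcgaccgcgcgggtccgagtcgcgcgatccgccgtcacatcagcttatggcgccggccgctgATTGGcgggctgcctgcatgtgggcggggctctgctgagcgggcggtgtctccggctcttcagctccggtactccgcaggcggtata
Abca1, chr5:72596474-72596723, minus strand: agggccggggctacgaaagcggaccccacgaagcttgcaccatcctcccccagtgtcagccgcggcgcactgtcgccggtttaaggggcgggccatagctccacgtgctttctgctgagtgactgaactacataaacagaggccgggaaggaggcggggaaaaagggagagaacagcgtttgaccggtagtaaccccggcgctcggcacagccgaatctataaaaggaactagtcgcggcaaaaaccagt

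Of the 30 members, 25 had a promoter in the table, and Pmvk, Fdft1, Sqle, Stard4 and Abcg1 did not. The NF-Y box was found, on either strand, in 12 of 15 synthesis promoters (80%), in 5 of 7 promoters of sensing, uptake and transport genes (71.4%), and in 0 of 3 efflux promoters, against 34% of all 33469 promoters of that length. Mvk carried 5 copies, the nearest 14 bases before the start, and Idi1 and Mvd each had a copy 35 bases before it. The Sp1 box GGGCGG was in 13 of 15 synthesis promoters (86.7%) against 30.5% of all. A core form of the sterol regulatory element, TCACNCCAC, was in none of the 25 member promoters and in 0.974% of all. The E-box CACGTG, a palindrome, was in 1 of 15 synthesis promoters, that of Sc5d, in 2 of 7 of sensing, uptake and transport (Insig1 and Scap) and in 1 of 3 of efflux (Abca1), against 5.59% of all. The response element of liver X receptors was searched only as an exact repeat of AGGTCA after any 4 bases. That form was in none of the members and in 0.00299% of all promoters. It is so rare that its absence says little about whether a member has such an element. All motifs were searched on both strands, and no motif holds another within it. A match is one of letters within a short window. Looser forms of these motifs were not searched, so the lack of a match does not show that a promoter lacks a site.

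In the posterior eye of young animals, all 18 synthesis genes lay lower in OVX than in sham animals, but no member passed the test. The median log2 fold change over the synthesis genes was -0.46, a 1.37-fold lower level, while 52.8% of all 16401 genes tested lay below 0 with a median of -0.01. At an adjusted p under 0.05, edgeR's quasi-likelihood test called 0 of 30 members and 0.0061% of all genes (1 gene). At an unadjusted p under 0.05, 14 of 18 synthesis genes and 2 of 8 sensing and transport genes were lower, against 3.19% of all genes. No member had groups that did not overlap, against 0.134% of all genes in this direction. A lower level in such bulk samples cannot tell fewer cells of a type from less RNA per cell.

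Idi1 isomerises the 5-carbon isoprenoid unit. Its level ran from 21.2 through a median of 30.0 to 46.9 CPM in young sham and from 16.1 through 20.9 to 25.5 CPM in young OVX (log2 fold change -0.63 ± 0.16 SE, adjusted p = 0.6611). All 6 OVX libraries lay under the sham median, and the groups overlapped between 21.2 and 25.5 CPM. Mvd, which decarboxylates mevalonate to that unit, ran from 25.9 through 37.3 to 59.8 CPM in sham and from 20.2 through 24.3 to 28.9 CPM in OVX (-0.74 ± 0.20, adjusted p = 0.6611). Sham animal 1 alone lay within the OVX range.

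Fdps joins isoprenoid units into farnesyl diphosphate, the branch point to sterols. Its lowest, median and highest levels were 214, 269 and 411 CPM in young sham and 193, 218 and 252 CPM in young OVX (-0.47 ± 0.13, adjusted p = 0.6611). Mvk, the kinase that commits mevalonate to the pathway, was tighter, at 28.4, 33.8 and 38.6 CPM in sham and 23.0, 26.8 and 30.0 CPM in OVX (-0.32 ± 0.09, adjusted p = 0.6611). For both genes every OVX library was under the sham median, with overlap at the lower end of the sham range.

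**Figure D1:**
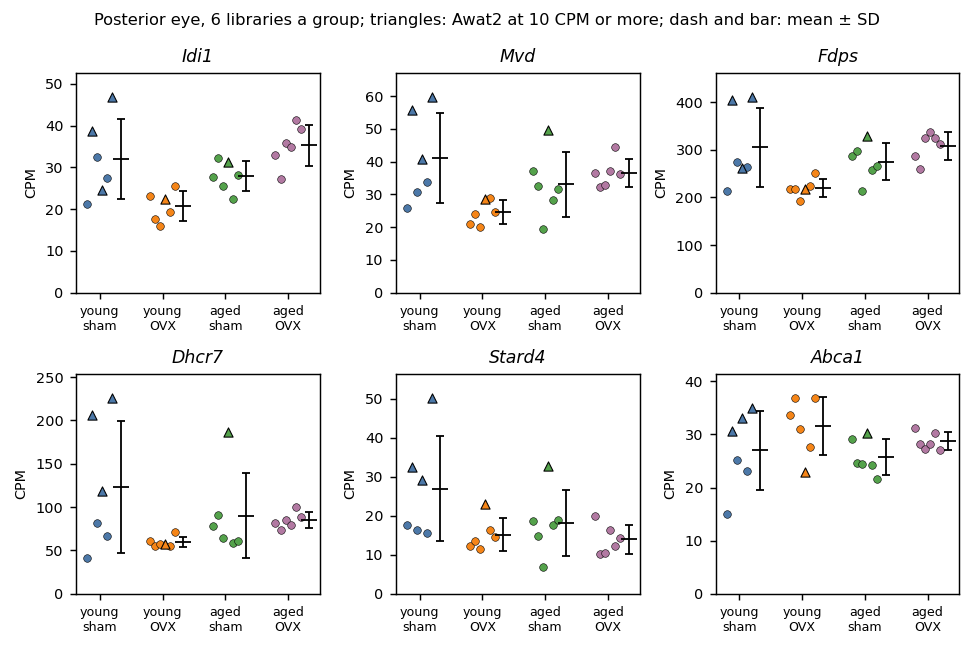
Level (CPM, linear axis from 0) of 5 genes of synthesis and transport and of Abca1 in each posterior eye library, 6 a group; triangles are libraries with Awat2 at 10 CPM or more, and the dash and bar give the mean ± SD. The highest young sham points of Dhcr7 and Stard4 are triangles, and the 6 young OVX points of Idi1 lie between 16.1 and 25.5 CPM.

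The size of the difference varied along the pathway. Dhcr7, which makes cholesterol from 7-dehydrocholesterol in the last step, had the largest, from 123 ± 76.3 CPM (SD, n = 6) in sham to 59.3 ± 5.98 CPM in OVX (-1.06 ± 0.32). Hmgcs1, the synthase that starts the mevalonate steps, stood at 294 ± 154 and 158 ± 28.8 CPM (-0.89 ± 0.27). Msmo1 and Sc5d, which oxidise methyl groups and the sterol ring, were at -0.65 and -0.61. Pmvk, the second kinase of the mevalonate steps, had the smallest, at -0.09 ± 0.06. Acat2, a thiolase that joins acetyl units, was at -0.52, and Fdft1 and Sqle, which make squalene and its epoxide, were at -0.44 and -0.43. Among the enzymes that work on the ring, Ebp (-0.56), Cyp51, the lanosterol demethylase (-0.45), Nsdhl and Hsd17b7, which remove its methyl groups with Msmo1 (-0.37 and -0.33), Lss (-0.30) and Tm7sf2 (-0.28) lay between these on the log2 scale. This order rested on the libraries high in Awat2. Without those 5, Dhcr7 was at -0.07, Idi1 had the largest difference at -0.41, and Hsd17b7 (0.23), Tm7sf2 (0.13), Acat2 (0.04) and Pmvk (0.03) lay above 0.

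Genes outside synthesis did not share one direction. Of the 8 sensing, uptake and transport genes 4 lay above 0 and 4 below, with a median of -0.04. Insig1, itself an SREBP-2 target, was lower (-0.46 ± 0.17), as was Stard4, a cytosolic carrier of sterol (-0.83 ± 0.31). Srebf2 was at -0.17 and Insig2 at -0.07, whereas Scap (0.01), Npc1, which lets sterol out of the lysosome (0.00), Mylip, which degrades lipoprotein receptors (0.13), and Npc2, which hands sterol to Npc1 in the lysosome (0.16), were at or above 0. The efflux genes had a median of 0.04. Abca1 was at 27.0 ± 7.44 CPM in sham and 31.5 ± 5.48 CPM in OVX (0.22 ± 0.15), Abcg1 was at 0.00, Nr1h2 at 0.05 and Nr1h3 at 0.04.

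Awat2 varied with these values. Young sham libraries with Awat2 at 10 CPM or more (animals 2, 4 and 6) had a summed level of the 18 synthesis genes of 2568, 1609 and 2781 CPM, and the other 3 (animals 1, 3 and 5) of 1156, 1660.4 and 1394 CPM. The 6 young OVX libraries lay between 1114 and 1495 CPM. Sham animals 2 and 6 therefore lay far above every OVX library. Of the sham libraries low in Awat2, animals 1 and 5 lay within the OVX range. Animal 3, also low in Awat2, lay above that range, as did animal 4. Stard4 was at 29.02 to 50.2 CPM in sham animals 2, 4 and 6 and 15.7 to 17.6 CPM in sham animals 1, 3 and 5. It was at 11.3 to 23.1 CPM in OVX.

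**Figure D2:**
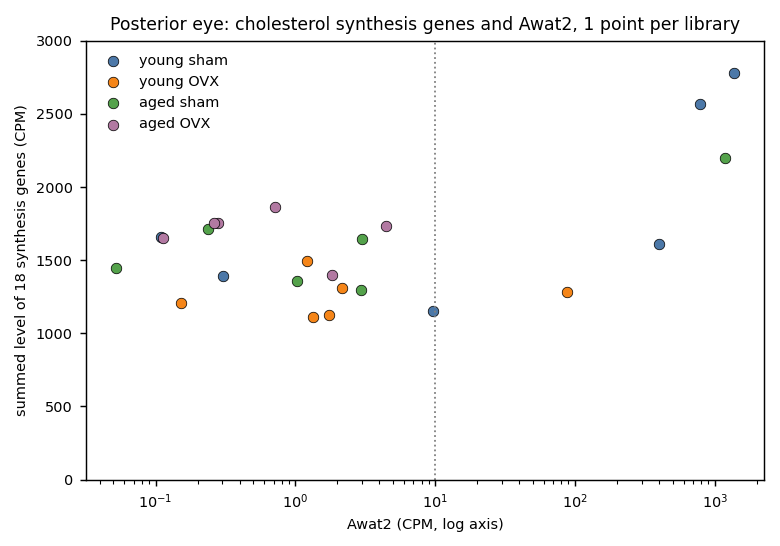
Summed level of the 18 synthesis genes (CPM, linear axis) against Awat2 (CPM, log axis) in the 24 posterior eye libraries, coloured by group; the dotted line marks 10 CPM. The 3 highest libraries all hold Awat2 at 792 CPM or more, and to the left of the line aged OVX points lie mostly above young OVX points.

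With the 5 libraries at 10 CPM or more of Awat2 left out, 3 young sham and 5 young OVX libraries remained. The median over synthesis genes was then -0.15, with 14 of 18 below 0 and 3 of 18 (Idi1, Mvd and Mvk) lower at an unadjusted p under 0.05, against 2.46% of all genes. Idi1 was at -0.41, Mvd at -0.34 and Mvk at -0.23, while Dhcr7 was at -0.07 and Msmo1 at -0.05. With the log2 level of Awat2 as a covariate in place of leaving libraries out, the median was -0.29, all 18 lay below 0 and 8 of 18 were lower at that p, against 1.35% of all genes. Young sham animal 1, at 9.70 CPM, lay just under the limit and had the lowest synthesis sum of its group. Lens genes were read in the same contrast, and 10 of 10 lay above 0 and 3 of 10 were higher at an unadjusted p under 0.05, against 3.05% of all genes, with a summed level of 639.7 to 2911 CPM in young sham and 419 to 4000.2 CPM in young OVX. Adding the rod genes' level to the model gave a synthesis median of -0.48. The part of lens tissue in the result was not tested.

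Abca1 stood further above 0 when those libraries were left out. Its young sham levels were 30.7, 33.1 and 35.1 CPM where Awat2 was high and 15.1, 23.1 and 25.1 CPM where it was low. The 5 young OVX libraries low in Awat2 ran from 27.6 to 36.9 CPM and did not overlap the latter. The log2 fold change moved from 0.22 to 0.66 (adjusted p = 0.4903 by edgeR), and 3.08% of all genes were likewise higher without overlap in these 3 against 5 libraries.

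Within groups, several synthesis genes rose with Awat2. Fitted over all 24 libraries with a mean for each group, the slope on log2 Awat2 was positive for 18 of 18 synthesis genes. The share of all genes with a positive slope was not computed. The slope was called for 5 synthesis genes (Hmgcs1, Msmo1, Ebp, Sc5d and Dhcr7) and for Stard4, 6 of 30 members against 1.03% of all genes. Dhcr7 had the steepest, 0.12 ± 0.02 log2 units per doubling of Awat2 (adjusted p = 0.002591), Stard4 had 0.11 ± 0.02 (adjusted p = 0.02461), and Idi1, at 0.03 ± 0.02, Fdft1, at 0.02 ± 0.01, and Mvk, at 0.02 ± 0.01, were among those not called. None of the 4 efflux genes was called. In the 3 high young sham libraries gland tissue and group cannot be told apart.

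The wider pathway was read from further lists. Of 36 tested of 39 further genes of cholesterol handling, 19 lay above and 17 below 0 in the young contrast, with a median of 0.01, and 5 were lower and 1 higher at an unadjusted p under 0.05 (3.19% and 3.05% of all genes were). Among those with the smallest p were Soat1, which esterifies cholesterol for storage (90.5 and 32.9 CPM in sham and in OVX animals, -1.46 ± 0.55), and Cyp7b1, an oxysterol hydroxylase (7.41 and 9.89 CPM, 0.41 ± 0.16). Of 15 tested of 17 genes of fatty acid synthesis, driven mainly by the sister factor SREBP-1, 11 lay below 0 (52.8% of all genes) with a median of -0.17. Scd, the desaturase that skin glands hold in great amount, stood at 1607 CPM in sham and 139 CPM in OVX animals (-3.54 ± 1.11). Pnpla3, a lipid droplet enzyme, was at 56.9 and 39.2 (-0.54 ± 0.18) and Elovl6, a fatty acid elongase, at 1.53 and 0.423 (-1.85 ± 0.70). None of these was called. The sham means of these further genes include the 3 libraries high in Awat2, and the genes were not read without them.

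In the posterior eye of aged animals no member passed the test for OVX against sham. The synthesis median was 0.09 with 14 of 18 genes above 0 (51% of all genes were), and 0 of 30 members and 0% of all genes were called. Idi1 had the smallest p. Its lowest, median and highest levels were 22.4, 27.9 and 32.2 CPM in aged sham and 27.2, 35.3 and 41.3 CPM in aged OVX (0.34 ± 0.16, adjusted p = 0.9999). It was the only synthesis gene higher at an unadjusted p under 0.05 (1.56% of all genes were), and 5 of 6 OVX libraries lay above the sham median. Without aged sham animal 16 alone, which was high in Awat2, all 18 synthesis genes lay above 0 with a median of 0.18, and 1 of 18 was higher at an unadjusted p under 0.05. The matching shares of all genes were not computed for this fit. When all 5 libraries high in Awat2 were left out, 4 of them young and outside this contrast, the median was also 0.18, and 6 of 18 were higher at that p, against 1.38% of all genes.

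Between the OVX groups of the posterior eye all 18 synthesis genes lay higher in aged than in young animals (46.1% of all genes did), with a median of 0.43, a 1.34-fold higher level, and 13 of 18 were higher at an unadjusted p under 0.05, against 6.43% of all genes. For 6 genes the groups did not overlap, against 0.451% of all genes. EdgeR's test called 0 members and 0% of all genes, while DESeq2 called Idi1 (adjusted p = 0.01131) and Pmvk (adjusted p = 0.036) among 0.281% of all genes. In this contrast 11 of 12 libraries were low in Awat2. Other tissue moved with age here. Of 7 sclera genes, which summed to 5383 to 10262 CPM in young OVX and 5202 to 8606 CPM in aged OVX, 3 were lower at an unadjusted p under 0.05, and of 10 lens genes, at 419 to 4000.2 and 445 to 1170 CPM, 8 were lower, against 3.71% of all genes. No sclera or lens gene was at 0 in a whole group, and the part of these tissues in the result was not tested.

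Idi1 ran from 16.1 through 20.9 to 25.5 CPM in young OVX and from 27.2 through 35.3 to 41.3 CPM in aged OVX (0.77 ± 0.16, edgeR adjusted p = 0.1841). Every aged library stood above every young one. The other genes without overlap were Pmvk (26.4 to 27.7 CPM young, 30.3 to 35.8 CPM aged), Mvd (20.2 to 28.9 and 32.4 to 44.4), Fdps (193 to 252 and 259.5 to 337), Tm7sf2, a sterol reductase (29.5 to 38.6 and 39.0 to 55.5), and Dhcr7 (54.5 to 70.7 and 73.5 to 101). Idi1, Pmvk, Tm7sf2 and Dhcr7 came within 3 CPM of overlap, and Dhcr7 did not reach an unadjusted p under 0.05. Without young OVX animal 10 alone, the library at 88.1 CPM of Awat2, the median was 0.44 and 12 of 18 genes were higher at an unadjusted p under 0.05. The share of all genes at that p was not computed for this fit. In the fit that left out all 5 libraries high in Awat2, 4 of them outside this contrast, the median was again 0.44 and 17 of 18 were higher at that p (5.07% of all genes). Over the 5 young and 6 aged OVX libraries low in Awat2, Lss joined the genes without overlap, which were then 7 against 0.679% of all genes. Sqle, the epoxidase of squalene (0.59 ± 0.17), Hsd17b7 (0.67 ± 0.22), Insig1 (0.47 ± 0.17) and Srebf2 (0.26 ± 0.09) were also higher at an unadjusted p under 0.05, while Stard4 (-0.12), Abca1 (-0.13) and Abcg1 (0.08) were not.

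**Figure D3:**
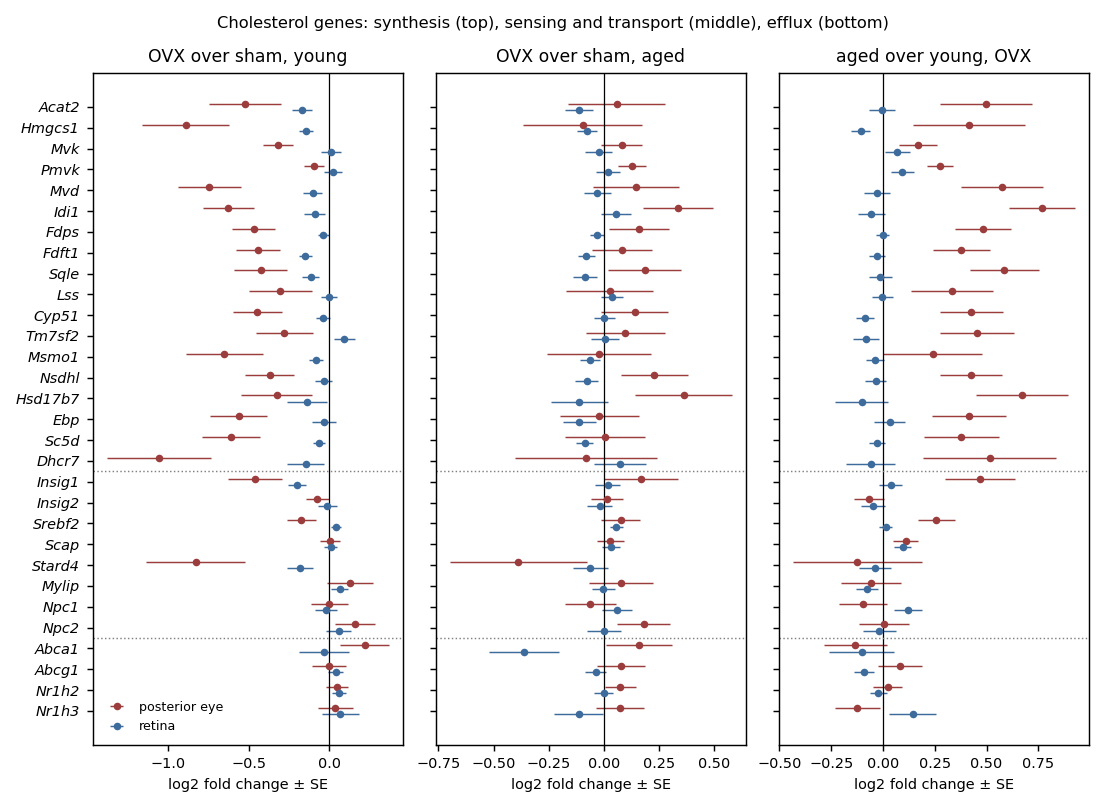
Log2 fold change ± SE of each of the 30 genes for OVX over sham in young animals, OVX over sham in aged animals and aged over young within OVX, in the posterior eye (red) and retina (blue); the horizontal scale differs between panels. All 18 posterior eye synthesis points lie below 0 in the first panel and above 0 in the third, and the retina points of these genes lie closer to 0.

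In the posterior eye of sham animals no member differed with age past the test. The synthesis median for aged against young sham was -0.15, with 15 of 18 below 0 (55.9% of all genes were) and 0 of 30 members and 0% of all genes called. Mvk had the smallest p, at 28.4, 33.8 and 38.6 CPM in young and 24.7, 28.95 and 32.1 CPM in aged sham (-0.23 ± 0.09, adjusted p = 0.9998), and was the only synthesis gene lower at an unadjusted p under 0.05 (1.23% of all genes were). All 6 aged libraries were below the young median. In the fit without the 5 libraries high in Awat2, of which 4 are sham, the median changed sign, to 0.10, with 3 of 18 below 0, and 3 of 18 were then higher at an unadjusted p under 0.05 (2.08% of all genes). Without young sham animal 6 alone it was -0.03, and without animal 2 alone -0.03.

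Whether the OVX difference itself changed with age was tested by the interaction. It was positive for 18 of 18 synthesis genes (49.4% of all genes), with a median of 0.61, and 14 of 18 were above 0 at an unadjusted p under 0.05 (1.99% of all genes), yet 0 of 30 members and 0% of all genes were called. Idi1, at mean levels of 31.9 and 20.7 CPM in young sham and OVX and 27.9 and 35.2 CPM in aged sham and OVX, had the smallest p (0.96 ± 0.23, adjusted p = 0.9998). Without the libraries high in Awat2 all 18 stayed above 0, the median was 0.32, and 4 of 18 reached that p, against 0.811% of all genes. For OVX against sham over both ages the synthesis median was -0.15, with 5 of 18 lower at that p (2.59% of all genes) and 0 of 30 members called, and Stard4 had the smallest p (-0.61 ± 0.22, adjusted p = 0.7292). It ran from 15.7 through 23.3 to 50.2 CPM in young sham, from 11.3 through 14.0 to 23.1 in young OVX, from 6.75 through 18.1 to 32.8 in aged sham and from 10.3 through 13.2 to 19.9 in aged OVX. The highest library of both sham groups was one high in Awat2, and without such libraries the synthesis median over both ages was 0.01.

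In the retina differences were small and libraries spread less. The coefficient of variation had a median over the 30 members of 5.84% in young sham retina and 27.6% in young sham posterior eye. Young sham had the widest spread in the posterior eye. In young OVX, aged sham and aged OVX the median was 5.975%, 5.99% and 6.64% in retina and 14.9%, 15.7% and 11.5% in posterior eye. In young animals 15 of 18 synthesis genes lay lower in OVX (50.3% of all genes), with a median of -0.07, a 1.05-fold lower level. At an unadjusted p under 0.05, 4 of 18 (Fdft1, Hmgcs1, Acat2 and Sqle) were lower, against 5.58% of all genes, with Insig1 and Stard4 of the sensing and transport genes. EdgeR called 0 of 30 members and 0.0194% of all genes. Genes of the pigment epithelium moved in the same contrast. Of 10 such genes, none was at 0 in a whole group. In OVX 7 were higher and 1 lower at an unadjusted p under 0.05 (6.09% of all genes were higher). Their summed level was 1144 to 1347 CPM in young sham and 1166 to 1391 CPM in young OVX. Rlbp1, 1 of the 10, was also listed for Müller glia, so the sum does not read pigment epithelium alone. The mean log2 level of the 10 genes was 4.90 in young sham and 5.45 in young OVX. Once their level was a covariate, 16 of 18 synthesis genes lay below 0, the median was -0.04, and 2 of 18 rather than 4 were lower at that p, against 5.78% of all genes. Fdft1 remained at -0.15 in that model.

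Fdft1, squalene synthase and the first enzyme given over to sterols, had the smallest p. Its lowest, median and highest levels were 162, 177 and 184 CPM in young sham and 148, 160.1 and 169.9 CPM in young OVX (-0.15 ± 0.04, edgeR adjusted p = 0.16). All 6 OVX libraries lay below the sham median and the ranges overlapped between 162 and 169.9 CPM. DESeq2 called it (adjusted p = 0.04951) among 0.401% of all genes. Msmo1 was the only member without overlap, at 72.2 to 75.1 CPM in sham and 64.2 to 71.2 CPM in OVX (-0.08 ± 0.04), against 0.756% of all genes in that direction. Insig1 was at 189.5 ± 10.3 and 165 ± 13.9 CPM (-0.20 ± 0.06) and Hmgcs1 at 214 ± 8.06 and 194 ± 8.23 CPM (-0.14 ± 0.04).

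**Figure D4:**
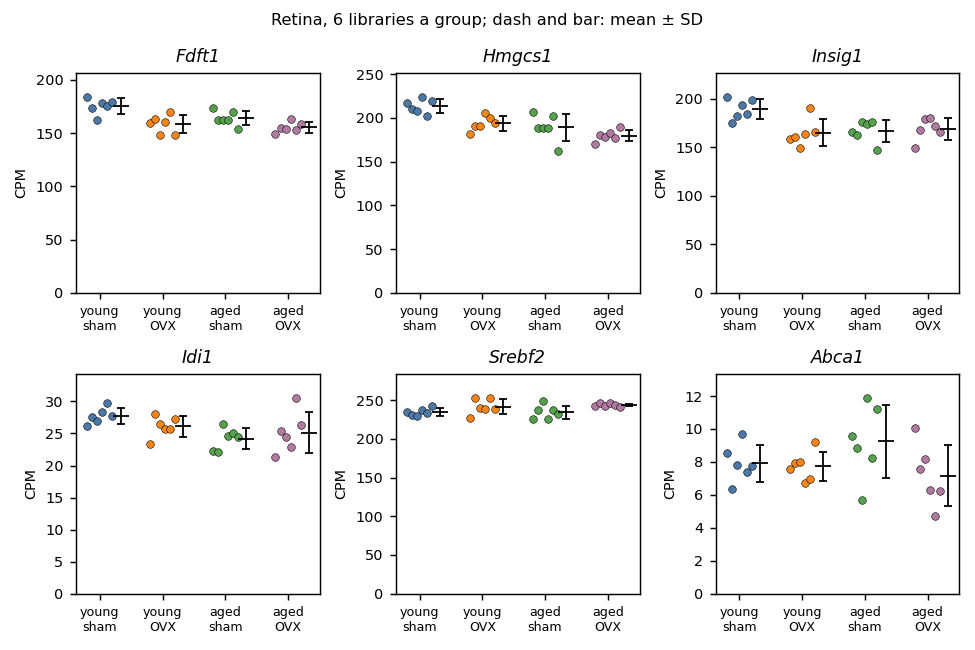
Level (CPM, linear axis from 0) of 6 genes in each retina library, 6 a group, with the mean ± SD as a dash and bar. Fdft1, Hmgcs1 and Insig1 are highest in young sham, and Abca1 spreads most in the aged groups.

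In aged retina no member passed the test either. For OVX against sham, 12 of 18 synthesis genes lay below 0 (50.2% of all genes) with a median of -0.05, 1 of 18 (Sc5d) was lower at an unadjusted p under 0.05 (3.26% of all genes), and 0 of 30 members and 0.00646% of all genes were called. Abca1, the exporter to lipid-poor apolipoprotein, had the smallest p, at 5.70, 9.20 and 11.9 CPM in aged sham and 4.73, 6.91 and 10.0 CPM in aged OVX (-0.36 ± 0.16, adjusted p = 0.7505). The ranges overlapped over most of their length. The summed level of the 10 pigment epithelium genes ran from 1205 to 1710 CPM in aged sham and from 929 to 1242 CPM in aged OVX, and 7 of 10 were lower at an unadjusted p under 0.05. Once their level was a covariate, Abca1 was at -0.13 (adjusted p = 0.9752 by edgeR), and 4 of 18 synthesis genes rather than 1 were lower at an unadjusted p under 0.05, against 2.19% of all genes. Over both ages the synthesis median was -0.06, 6 of 18 were lower at an unadjusted p under 0.05 (5.26% of all genes). Of the 8 sensing, uptake and transport genes 3 reached that p over both ages, with Insig1 (-0.09 ± 0.04) and Stard4 (-0.12 ± 0.06) lower and Srebf2 higher (0.05 ± 0.02). Fdft1 again had the smallest p (-0.11 ± 0.03, edgeR adjusted p = 0.147, DESeq2 adjusted p = 0.03003 among 0.259% of all genes called), with 154, 162 and 173 CPM as lowest, median and highest in aged sham and 149, 154 and 163 CPM in aged OVX. EdgeR called 0 of 30 members and 0.0517% of all genes there.

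With age, Hmgcs1 and Insig1 lay lower in sham retina, in a comparison that shares the young sham libraries with the one on OVX. Hmgcs1 ran from 203 through 214 to 224 CPM in young sham and from 163 through 188 to 207 CPM in aged sham (-0.18 ± 0.04, edgeR adjusted p = 0.1546, DESeq2 adjusted p = 0.03634 among 0.433% of all genes called). Of the 6 aged libraries, 1 reached the young range. Insig1 (-0.18 ± 0.06), Idi1 (-0.20 ± 0.07), Cyp51 (-0.13 ± 0.05), Fdft1 (-0.10 ± 0.04) and Dhcr7 (-0.28 ± 0.12) were lower too at an unadjusted p under 0.05. In all, 5 of 18 synthesis genes were, against 4.97% of all genes, and edgeR called 0 of 30 members and 0.0388% of all genes. Nr1h3, the liver X receptor α, went the other way, from 5.84 ± 0.650 to 7.32 ± 1.32 CPM (0.33 ± 0.11, adjusted p = 0.2816; 5.72% of all genes were higher at an unadjusted p under 0.05). In this contrast 6 of 10 pigment epithelium genes were higher and 10 of 10 lens genes lower at that p. Lens genes summed to 6351 to 67088 CPM in young sham and 4104 to 31739 CPM in aged sham retina, and none was at 0 in a whole group. Once the level of the pigment epithelium genes was a covariate, Nr1h3 was at 0.23 and Hmgcs1 at -0.14, and edgeR called 0 of 30 members. The part of lens tissue in these values was not tested.

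Between the OVX groups of the retina the synthesis median was -0.03, with 1 of 18 lower at an unadjusted p under 0.05 (4.22% of all genes; 2 of 18 with the pigment epithelium covariate), and 0 of 30 members and 0.0711% of all genes were called. Hmgcs1 had the smallest p there too, at 181, 192 and 205 CPM in young OVX and 170.2, 179 and 189 CPM in aged OVX (-0.11 ± 0.04, adjusted p = 0.4574). In the retina the interaction was led by Insig1 (0.22 ± 0.08, adjusted p = 0.6831), whose lowest, median and highest levels were 175, 189 and 202 CPM in young sham, 149.7, 162 and 191 in young OVX, 148, 170.5 and 176 in aged sham and 149, 170.4 and 181 in aged OVX. Young sham had the highest median, and its range overlapped that of each other group. EdgeR called 0 of 30 members and 0.0452% of all genes.

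The young OVX effect was then compared between tissues, and no member passed the test. Over the 18 synthesis genes the difference between tissues had a median of -0.39. Of these genes, 10 of 18 were below 0 at an unadjusted p under 0.05, against 2.71% of all genes. It was -0.64 ± 0.21 for Mvd, -0.53 ± 0.18 for Idi1 and -0.43 ± 0.15 for Fdps (adjusted p = 0.7036 for each), and 0 of 30 members and 0.0175% of all genes were called. In the paired fit with the animal as a replicate block the median was -0.34 and 0 members were called. This comparison includes the 3 young sham posterior eye libraries high in Awat2, and it was not refitted without them. Within the posterior eye, the synthesis median for young OVX against sham was -0.46 with all libraries. It was -0.15 without those high in Awat2.

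Within groups the synthesis genes of the posterior eye varied together. After the group means were removed, the mean pairwise correlation of log2 levels over 24 libraries was 0.73 among the 18 synthesis genes in the posterior eye, 0.18 among sensing and transport genes, 0.06 among efflux genes and 0.01 over all genes. In the retina the synthesis value was 0.17 and that of all genes 0.00. Insig1 followed the mean of the synthesis genes in posterior eye and retina (r = 0.84 and 0.77), and Srebf2 less (0.66 and 0.45). Stard4 (0.70 and 0.15) and Abca1 (0.67 and -0.42) followed that mean as closely as Srebf2 in the posterior eye only. Npc2 (0.09 and 0.68) followed it more closely than Srebf2 in the retina only. Insig2 ran against the mean in the posterior eye (-0.40). Lss (0.46) and Mvk (0.56) were the synthesis genes least tied to the rest there. These are descriptions over libraries that share the tissue mixture shown by Awat2 and the rod genes. For the same gene in the 2 tissues of an animal the median r was 0.02 over synthesis genes, 0.33 over the 8 sensing, uptake and transport genes, 0.10 over the 4 efflux genes and 0.07 over all genes.

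Between tissues almost all members differed, as most genes did. EdgeR called 29 of 30 members, against 93% of all 17153 genes tested across tissues. In synthesis 15 genes were higher and 3 lower in the posterior eye (47.8% and 45.2% of all genes), with a median log2 difference of 0.56, made up of medians of 0.75 over the 11 later sterol steps and 0.28 over the 7 mevalonate steps. Dhcr7 stood at 94.0 ± 52.3 CPM (SD, n = 24) in posterior eye and 28.01 ± 4.44 CPM in retina (1.70 ± 0.13 SE), higher in 24 of 24 animals, and Ebp, a sterol isomerase, 50.2 ± 14.0 and 17.6 ± 1.63. Mvd (-0.43 ± 0.07), Lss, which closes squalene epoxide into lanosterol (-0.25 ± 0.07), and Mvk (-0.17 ± 0.04) were the 3 lower ones.

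A lysosomal carrier and an exporter had the largest differences. Npc2 was at 226 ± 33.9 CPM in posterior eye and 53.9 ± 5.02 CPM in retina (2.07 ± 0.06), and Abca1 at 29.6 ± 5.50 and 7.66 ± 1.64 (1.95 ± 0.08), both higher in 24 of 24 animals. Stard4 ran the other way, at 19.4 ± 10.0 and 42.3 ± 4.78 CPM (-1.17 ± 0.12), lower in all animals but 1, and so did Abcg1, which exports sterol to mature particles, at 102 ± 12.0 and 179 ± 10.7 (-0.81 ± 0.04), lower in 24 of 24. Insig1 was the member not called, at 165 ± 39.5 and 165 ± 14.1 CPM (-0.01 ± 0.06).

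**Figure D5:**
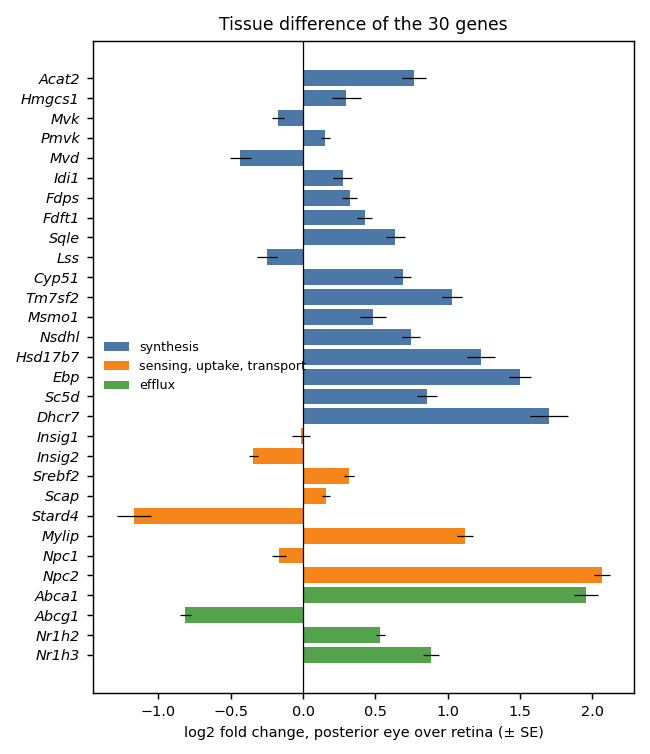
Log2 fold change of posterior eye over retina for each of the 30 genes, as bars from 0 with SE, coloured by class. Npc2 and Abca1 reach about 2, Stard4 lies beyond -1, and the late sterol genes Dhcr7, Ebp and Hsd17b7 stand above the mevalonate genes.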

How the data were processed

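RNA of 24 animals was measured in 48 libraries. Per the labels' protocols, cDNA was made with SMART-Seq and sequenced as paired ends. The submitters' processing notes name STAR 2.7.3a, HTSeq, DESeq2 and build Rnor_6.0. The authors deposited whole-number read counts per gene, 1 table a tissue, and sources used here do not give the annotation or strand setting. Depth was 11470945 to 22971367 counts in the posterior eye and 12916146 to 30737547 in the retina. In the posterior eye, 25 gene names read as calendar dates.

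Counts passing filterByExpr (16401 and 15481 genes) were TMM scaled and fitted with edgeR 4.0.16 (R 4.3.3), 1 mean per group, quasi-likelihood F test, two-sided, Benjamini-Hochberg over all genes tested, threshold 0.05. Standard errors are the absolute log2 fold change over the square root of F. The fit across tissues used 17153 genes. The tissues come from the same animals, and deviations of a library pair from its group means correlated at a median of 0.06 (-0.06 to 0.30) over genes. Alternatives were DESeq2 1.42.0, other scalings, no filter, single libraries left out, covariates and the Awat2 limit of 10 CPM. All members are named. Values per library follow the 4 members of smallest p in young posterior eye, any called member, or else the 1 of smallest p, in each other contrast. Of each list of other pathway genes, up to 3 of smallest p are named, and 1 gene is not reported here. The genes, lists and limit were chosen with earlier results of these data known. The model was tested on simulated data. Promoters are RefSeq's (GRCr8), not the build of the counts, and serve as sequence only.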

Additional observations from a re-analysis of the deposited data

Results flagged for a closer look

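In 96 checks for a library standing far from the rest of its group of 6, 5 found one, and chance gives about 1 in 20. The checks read several genes and class sums in the same libraries, so they are not independent. In young OVX retina, animal 11 was the highest for Mvd (56.6 CPM, next 49.3), Fdps (249 CPM, next 238) and Stard4 (51.1 CPM, next 42.7). In the posterior eye, aged sham animal 16, at 1177 CPM of Awat2, was the highest for Hmgcs1 (392 CPM, next 234). Aged OVX animal 20 was the lowest for Insig1 in the posterior eye (124 CPM, next 177). Their part in the results was not tested beyond leaving each library out.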

How the results depend on the processing

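Of 590 recomputed values, 541 were counted as unchanged. Single genes kept their direction and side of the threshold, and medians moved by less than the spread between replicates. Medians were not checked for direction, so one that changed sign can be among them. The posterior eye synthesis median for aged against young sham did so, from -0.15 to 0.10 without libraries high in Awat2. Counts of genes passed if they stayed within a set ratio of the main count, so a changed count can be among them. Of the rest, 45 moved past these limits and 4 were called only in the alternative. A further such call, that of Pmvk by DESeq2, was not among the 590 values. DESeq2 called 2 members for aged against young OVX in the posterior eye, where edgeR called 0, and 1 member each in the retina for OVX in young animals, for OVX over both ages and for age in sham animals. Its log2 fold changes and adjusted p were 0.75 and 0.01131 for Idi1, -0.15 and 0.04951 for Fdft1 in young retina, -0.11 and 0.03003 for Fdft1 over both ages, and -0.18 and 0.03634 for Hmgcs1. Leaving out libraries with Awat2 at 10 CPM or more moved the synthesis median from -0.46 to -0.15 for young OVX and from 0.61 to 0.32 for the interaction in the posterior eye. The construction leaves 3 young sham libraries. Leaving out single libraries called 0 members in every contrast within a tissue, and the young posterior eye median ranged from -0.54 to -0.35. In the paired fit across tissues, with the animal as a replicate block, 29 members were called for the tissue difference, the synthesis median was 0.52, and 0 were called for the difference in OVX effect (median -0.34). Paired fits within a tissue do not apply, since each animal is in 1 group. A biological coefficient of variation of 33.4% in the posterior eye against 12.0% in the retina limits the first more.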
